A study of Caenorhabditis elegans with 8 samples.

Results

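Among the oligonucleotides that nucleotide excision repair cut out of the *C. elegans* genome, those with a long run of thymines at the position of the lesion were examined. They were chosen on reference sequence alone: a read was taken where the genome, on the strand of the read, held 4 or more thymines in a row that included any base with 3 to 9 nt between it and the 3′ end of the read. Of 36212718 nuclear reads whose mapping quality exceeded 20, 8976725 (24.8%) held such a T run. Reads whose longest T run in the same window was 2 (15124323) or 3 (10738224) were the most similar other reads, and 1373446 had no adjacent thymines there. The reads came from XR-seq, in which excised oligonucleotides that carry cyclobutane pyrimidine dimers (CPDs) are pulled down with an antibody before and after adaptor ligation, photolyase reverses the dimers, and the products are amplified and sequenced.

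There were 4 groups of 2 libraries. WT (N2 ancestral) and *csb-1* (strain RB1801) larvae were irradiated with UVB at the L1 stage after a few hours of feeding and collected 1 h later. WT no UV libraries came from L1 larvae that were not irradiated, and the *xpc-1* libraries (strain TG2226) came from worms of mixed stages collected 1 h after UVB, so that strain and stage cannot be told apart for them. Transcription-coupled repair is lost in *csb-1* mutants, and global repair in *xpc-1* mutants. Libraries from L1 *xpc-1* larvae were not analysed here. The labels do not say whether replicates came from separate cultures, so p-values measure only the spread between these libraries, which may be technical.

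UV light joins neighbouring pyrimidines, above all adjacent thymines, and a run of thymines offers several overlapping pairs in which a dimer can form. Excision repair makes an incision on each side of the lesion, so that the dimer lies a few nucleotides from the 3′ end of the excised fragment. In global repair XPC finds lesions anywhere in the genome, whereas in transcription-coupled repair an RNA polymerase that stalls at a lesion on the template strand (TS) recruits the repair proteins through CSB. Runs of T or A are common in worm introns and promoters, and the 3′ end of a worm intron is typically a short T-rich stretch followed by CAG.

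Of WT, 8198054 and 3252700 reads were kept, of *csb-1* 6628507 and 13203914, and of the others 4762651 and 143716 (mixed-stage *xpc-1*) and only 10260 and 12916 (WT no UV). Mean copies per read lay between 1.25 and 3.29, except for 18.9 in WT replicate 2. In the *csb-1* libraries the longest stretch of the *csb-1* gene without a read was 965 bp (X, 15863113 to 15864077), where WT had 78 reads. In *xpc-1* the longest such stretch of the *xpc-1* gene was 853 bp, where WT had 8 reads and whose larger part was also empty in WT, so that gene gave no clear check of the label. The 37 yolk and sperm protein genes (*vit-*, *msp-*) had 24.99 and 41.7 RPM (the usual scaling of a read count to library size, here the kept reads) in mixed-stage *xpc-1* and 67.5 to 95.4 RPM in the irradiated L1 libraries. Excision reads do not measure expression, so these values check the stage only weakly.

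The 3246093 T runs of 4 or more on both strands of the genome were also counted as single sites. Sites with a read made up 29.5% and 14.2% of all in WT, 25.3% and 41.6% in *csb-1* and 13.7% and 0.845% in mixed-stage *xpc-1*. To show what such reads look like, the site with the highest lowest value over the 4 irradiated L1 libraries is given for each length of run, outside 1 chromosome that was left out. Each sequence is 24 nt of the WBcel235 reference, 5′ to 3′ on the strand of the read, ending at the most frequent 3′ end at that site, with the run in capitals.
Run of 4, chrIII:931416-931439, minus strand: tggcttcccaatataTTTTactct
Run of 5, chrV:12467911-12467934, plus strand: accacactcgcccaTTTTTgtgct
Run of 6, chrX:14747085-14747108, plus strand: tgtcagccgccttcccTTTTTTgc
Run of 7, chrIV:6748545-6748568, minus strand: aaccccgcctctcTTTTTTTgtgt
Run of 8, chrII:14810862-14810885, plus strand: ccaccgctctcTTTTTTTTgcttc
Run of 9, chrV:1474846-1474869, plus strand: ggccccgtctcTTTTTTTTTgcgt
The 3 sites with the highest lower value over both mixed-stage *xpc-1* libraries were the following.
Run near *let-70*, chrIV:11082764-11082787, plus strand: ggcatgtacgtattaTTTTctgat
Run near *uvs-1*, chrV:7804290-7804313, minus strand: gcggccatcccagTTTTTatcaca
Run in *ubl-1*, chrIII:3068408-3068431, minus strand: cctcggcggcctcgaTTTTTTgct
The same choice over the L1 libraries among runs in the last 20 nt of introns gave 3 more.
Run in *srxa-8*, chrX:13307483-13307506, minus strand: gcaacggtacattaTTTTTagact
Run in *vps-60*, chrV:8605829-8605852, plus strand: gtacgctgaaaagaaaTTTTgtat
Run in *sfxn-2*, chrX:7956666-7956689, minus strand: tgcttcatgcctcaTTTTagtcct

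The run of 4 on chromosome III lay outside genes, with the F-box gene *fbxa-55* as the nearest protein-coding gene. It had 9.64 and 8.92 RPM in WT, 9.66 and 7.35 in *csb-1*, and 3.99 (19 reads) and 0 in mixed-stage *xpc-1*. The values were not ordered by length among the sites, since the run of 6 had 5.49 and 11.4 in WT and the run of 5 had 3.54 and 3.69. The run of 9, upstream of *unc-60* (an actin-binding cofilin), had WT values of 2.20 and 3.69, *csb-1* values of 1.81 and 1.51, and 0 reads in both *xpc-1* libraries. The runs of 5, 6, 8 and 9 lay within 2 kb upstream of protein-coding genes. The run of 7 was in the 5′ UTR of *lin-45*, the worm Raf kinase, on the non-template strand (NTS), and had 4.03 and 9.84 RPM in WT and 3.47 and 2.27 in *csb-1*. In each WT no UV library a single read fell on 1 of these 6 sites, and a count of 0 allows up to 3 reads.

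The sites chosen on mixed-stage *xpc-1* had lower values in *csb-1* than in WT. The run near *let-70*, which encodes a ubiquitin-conjugating enzyme, had 45 and 9 reads in *xpc-1* (9.45 and 62.6 RPM), 3.78 and 6.76 RPM in WT, and 0.453 and 0.606 in *csb-1*. The run in the coding sequence of *ubl-1*, a ubiquitin fused to a ribosomal protein, lay on the TS and had 39 and 2 reads in *xpc-1*. It had 4.88 and 4.92 RPM in WT and 2.41 and 0.909 in *csb-1*. Of the 3 runs at ends of introns, that of *vps-60* (an ESCRT-III protein) was on the TS and had 28 and 1 reads in *xpc-1*. Those of *srxa-8* (a chemoreceptor) and *sfxn-2* (a sideroflexin) were on the NTS, and had 0 reads in both *xpc-1* libraries against 1.83 and 2.15, and 1.22 and 1.84 RPM, in WT. The choice of sites on the irradiated L1 libraries favours higher values there than in *xpc-1*, also at the sites given for each length of run. With 143716 kept reads, a count of 0 in *xpc-1* replicate 2 says little at such values.

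T-run reads were more frequent than the genome predicts in every irradiated library and less frequent in both unirradiated ones. The base rate was the share of all 200544938 positions of a 3′ end on both strands (placements) that hold such a run, which was 16.9%. T-run reads made up 26.75% and 24.96% of all WT reads, 24.90% and 24.93% of those of *csb-1*, 20.94% and 20.97% in mixed-stage *xpc-1*, and 12.4% and 9.80% in WT no UV. The 95% exact Clopper-Pearson intervals ran from 26.72 to 26.78 and from 24.91 to 25.01 in WT, and from 11.8 to 13.1 and from 9.29 to 10.3 in WT no UV. Intervals cover counting error only, since amplified reads that carry no molecular identifier need not be separate molecules.

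Relative to the genome, the share was 1.53 ± 0.0750 times as high in WT, 1.47 ± 0.000993 in *csb-1*, 1.24 ± 0.00110 in mixed-stage *xpc-1* and 0.656 ± 0.110 in WT no UV (mean ± SD, n = 2 each). The *xpc-1* libraries thus lay between the irradiated and the unirradiated L1 libraries. The share in WT was 0.942 percentage points above *csb-1*, but WT replicate 2 was close to both *csb-1* libraries, and without WT replicate 1 the difference was 0.0443 points. WT exceeded WT no UV by 14.7 points, and *xpc-1* was below WT by 4.90 points (difference -4.90), both wider than the spread between replicates. Each comparison of 2 libraries with 2 gave an exact two-sided permutation p of 0.3333, the smallest this design allows. Runs of A in the same window, which have the same base rate by symmetry of the strands, stood at 0.28 and 0.28 times the genome for WT, 0.27 and 0.37 for *csb-1* and 0.48 and 0.22 in *xpc-1*, and at 0.61 and 0.59 in WT no UV.

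In WT and *csb-1* the excess was largest for a run of 3 and fell with each further thymine in each library. Taking the longest run that touched the window, reads with runs of 2 and 3 were 1.63 ± 0.0358 and 2.21 ± 0.0117 times as frequent as their placements in WT. Runs of 4, 5 and 6 stood at 1.74 ± 0.0866, 1.45 ± 0.0917 and 1.27 ± 0.0593, and runs of 7, 8 and 9 or more at 1.01, 0.842 and 0.481 ± 0.0915 (SD, n = 2). The values just outside and inside the rule were thus 2.21 and 1.74. In *csb-1* the same series for 3, 4, 6 and 9 or more was 2.22, 1.71, 1.19 and 0.372, and in mixed-stage *xpc-1* 1.93, 1.42, 1.03 and 0.486. The longest runs varied most between replicates: for 9 or more, the *xpc-1* libraries gave 0.253 and 0.718 and the *csb-1* libraries 0.292 and 0.452. In *xpc-1* replicate 2 the ratio did not fall from 6 to 8, at 1.048, 1.046 and 1.06. In WT no UV runs of 2 were highest, at 1.35 ± 0.0251 against 1.07 ± 0.162 for 3, and every class of 4 or more was below 1, from 0.748 ± 0.113 for 4 to 0.295 ± 0.0476 for 9 or more, the last from 31 reads.

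The fall was smaller among uniquely placed reads. With reads and placements limited to those whose last 19 nt occur once in the nuclear genome, runs of 9 or more rose to 0.778 ± 0.148 in WT and runs of 4 to 1.79 ± 0.0887, so that the ratio between both fell from 3.62 to 2.30. The order from 3 down to 9 or more was the same in WT and *csb-1*. Where only the run covering the 2 bases with 6 and 7 nt between them and the 3′ end was considered, the ratios in WT were 3.92 for 2 thymines, 5.27 for 3, 3.92 for 4, 2.83 for 5, 2.18 for 6 and 0.593 for 9 or more. Of T-run reads, 71.1% and 73.8% in WT had thymine at both bases, as against 42.8% and 45.2% of the other reads. In WT no UV these shares were 57.5% and 52.2% of T-run reads and 21.4% and 16.6% of the others. The rule itself makes thymine at these bases more likely in T-run reads, and the shares were not set against placements. The contrast between T-run and other reads is thus no measure of enrichment.

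Nearly all T-run reads held a single run, 96.1% to 97.4% in the irradiated libraries. For a run of exactly 4, the number of nucleotides between its last thymine and the 3′ end averaged 4.86 ± 0.137 in WT, 4.68 ± 0.0298 in *csb-1*, 4.97 ± 0.0853 in mixed-stage *xpc-1* and 5.34 ± 0.112 in WT no UV (SD, n = 2). In WT, 24.5% and 24.2% of such reads had 4 nt after the run, 24.5% and 27.0% had 5, and 15.5% and 17.2% had 6, so that these 3 positions held most of them. The most frequent distance was 5 in both WT and both *xpc-1* libraries, in WT replicate 1 by 24.484% against 24.478%, and 4 in both *csb-1* libraries. For runs of exactly 6 the mean distance was 4.49 ± 0.146 in WT and 4.33 ± 0.0724 in *csb-1*. The rule by which reads were chosen allows at most 9 nt after a run, so all the mean distances in irradiated libraries lay near the middle of the allowed range. The means alone therefore do not measure where the lesion lay.

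Relative to placements, the place of the run was sharper than these shares show. A lone TT was most enriched with 6 nt after it, at 3.75 and 4.09 in WT, and a run of 3 with 5 nt after it, at 6.38 and 6.83. A run of 4 reached 4.50 and 4.17 with 4 nt after it and 4.46 and 4.60 with 5, but 2.85 and 2.94 with 6, where its 3′ pair occupies the place at which a lone TT was most enriched. A run of 6 stayed between 1.45 and 2.79 from 2 to 6 nt after it in WT. With 8 to 10 nt after the run, the profiles for runs of 4, 5 and 6 were below 1 in WT and *csb-1*. Longer runs thus had a lower and broader profile than a run of 3. In mixed-stage *xpc-1* the profile for a run of 4 was lower and peaked at 5 nt, at 3.39 and 3.28.

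The frequency also differed with the bases next to the run. Among runs of exactly 4 with 4 to 6 nt after them, those followed by G were 4.87 ± 0.166 times as frequent as their placements in WT, those followed by A 3.58 ± 0.0765 and those followed by C 3.45 ± 0.128 (SD, n = 2). On the other side, runs preceded by C stood at 4.83 ± 0.239, by A at 3.96 ± 0.0440 and by G at 3.13 ± 0.181. G after the run was highest, and G before it lowest, in all 4 irradiated L1 libraries. In *csb-1* the values were 4.34 ± 0.344 for G, 3.66 ± 0.245 for A and 3.08 ± 0.188 for C after the run. The *xpc-1* replicates differed from each other in A after the run, at 3.08 and 2.16. In WT no UV a C before the run was also the highest, at 1.90 ± 0.452, with the other 2 bases at 1.29 ± 0.358 (A) and 0.649 ± 0.282 (G).

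The 6 bases with 4 to 9 nt between them and the 3′ end were then compared as hexamers across all 8 libraries in a single limma voom fit. Of all possible hexamers, 4072 had a mean of at least 10 reads, among them all 40 that hold TTTT. Between WT and WT no UV, 37 of these 40 were higher in WT and 0 lower at an adjusted p under 0.05, with a median log2 difference of 1.75. Over all hexamers tested, 10.2% were higher and 68.2% lower, with a median of -2.29. The largest differences were 3.04 ± 0.61 for GTTTTC (log2 ± standard error, adjusted p = 0.000455 from limma), 3.02 ± 0.40 for CGTTTT (adjusted p = 3.21e-05 from limma) and 2.93 ± 0.47 for GTTTTT (adjusted p = 9.28e-05 from limma). TGTTTT and AGTTTT, the next in order, stood at 2.73 and 2.62, and all 5 had a G before the run. These hexamers passed the minimum of 10 reads through the irradiated libraries. Of the 10260 and 12916 WT no UV reads, GTTTTC made up 0.0975% and 0.00774% and CGTTTT 0.0195% and 0.0232%. The order and the shared G thus rest on very few unirradiated reads. The 3 that were not called were TCTTTT (0.90, adjusted p = 0.0690 from limma), TTTTCT (0.85, adjusted p = 0.122 from limma) and TTTTAA (0.58, adjusted p = 0.275 from limma), and TTTTAC and CTTTTA were the next lowest at 1.03 and 1.10. Without WT no UV replicate 2, 21 of the 40 were called.

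No hexamer was called between WT and *csb-1*, 0% of those tested in each direction. Of those with TTTT, 0 also had an unadjusted p under 0.05 in the same limma fit, as against 166 higher and 13 lower of all 4072. Their median difference was 0.17, next to -0.06 over all hexamers, and 27 of 40 were above 0. The largest were 0.57 ± 0.27 for TTTTCC, 0.53 ± 0.29 for TTTTCG and 0.47 ± 0.31 for CTTTTC, and the smallest -0.20 ± 0.25 for GTTTTA and -0.18 ± 0.26 for AATTTT, all with an adjusted p of 0.998 from limma. TTTTAG (0.40), TTTTCT (0.37), ATTTTA (-0.13), TATTTT (-0.13) and TTTTTA (-0.10) completed the extremes. The upper end of this ranking held mostly runs followed by C, but no difference in it was called, so the order shows no preference.

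Between mixed-stage *xpc-1* and WT, again 0% of hexamers were called in each direction, with 9 of the 40 lower and 0 higher at an unadjusted p under 0.05 in the limma fit, and 51 lower and 1362 higher over all hexamers. Their median was -0.42 next to 0.80 over all hexamers, and only 1 of 40 was above 0. The smallest were -1.30 ± 0.35 for CTTTTC, -1.16 ± 0.28 for CCTTTT, -1.12 ± 0.27 for CTTTTT and -1.003 ± 0.271 for TCTTTT (adjusted p = 0.0669 from limma for each), followed by ACTTTT at -0.80. All 5 had C before the run. At the other end, TTTTGT (0.05), TTTTGC (-0.01), TTTTCA (-0.08), TTTTGG (-0.08) and TTTTGA (-0.09) were nearest to 0 or above it. The *xpc-1* libraries themselves disagreed here: CTTTTC was 1.46 times as frequent as in the genome in replicate 1 and 3.90 times in replicate 2, with 4.40 and 4.70 in WT. Without either WT no UV library, which share the estimate of the spread, 8 of the 40 were called lower in *xpc-1*. The 3 comparisons share the WT libraries.

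The length of the excised fragment, which the files limit to 19 to 24 nt, was little affected by the run and not in the same direction everywhere. T-run reads averaged 21.7 and 21.8 nt in WT, longer than the other reads by 0.060 and 0.092 nt, and were longer by 0.078 and 0.069 nt in *csb-1*. In mixed-stage *xpc-1* they were shorter, with differences of -0.043 and -0.134 nt, and in WT no UV the differences were -0.240 and -0.206 nt. Over the 6 irradiated libraries the mean difference was 0.020 nt (exact two-sided sign-flip permutation p = 0.594). It ranged from 0.0061 nt without WT replicate 2 to 0.0513 nt without *xpc-1* replicate 2, with 0.0124 and 0.0331 nt without the other library of each group and 0.0088 and 0.0106 nt without *csb-1* replicate 1 or 2. The share of T-run reads rose from 25.8% of reads of 19 nt to 27.8% of reads of 24 nt in WT replicate 1 and from 23.3% to 26.2% in replicate 2, while in *xpc-1* it fell from 21.5% to 20.3% and from 22.5% to 18.4%.

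Within the genome, introns held 43.9% of the placements with a T run and 31.1% of those without, and coding sequence 10.5% and 27.6%. Of the placements in introns 22.4% held a run, next to 20.1% in 3′ UTRs and 7.23% in coding sequence. The excised reads were shifted to coding sequence and 5′ UTRs. In WT, coding sequence held 16.6% ± 0.831 of the T-run reads, 1.57 ± 0.0788 times its share of placements, and 5′ UTRs stood at 1.84 ± 0.00419 (SD, n = 2). Introns were at 0.784 ± 0.00715, the 2 kb upstream of genes at 1.18 ± 0.0232 and 3′ UTRs at 0.977 ± 0.0114. The reads without a run had 1.02 ± 0.0369 in coding sequence, which was nearer to 1. The *csb-1* libraries resembled WT, with 1.44 ± 0.0498 in coding sequence and 0.789 ± 0.0290 in introns. In WT no UV, coding sequence was also above 1, at 1.69 ± 0.0971.

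Mixed-stage *xpc-1* had the strongest shift to coding sequence and the fewest intergenic reads. Coding sequence held 28.3% ± 0.539 of its T-run reads, 2.68 ± 0.0511 times the placements, and 5′ UTRs stood at 2.28 ± 0.357. The 2 kb upstream of genes fell to 0.844 ± 0.0520. Other intergenic sequence, which includes that just downstream of genes, fell to 0.516 ± 0.0881. The *xpc-1* reads without a run had 1.54 ± 0.0770 in coding sequence and 0.490 ± 0.0446 in that other intergenic sequence. With unique placements only, the coding ratio of T-run reads was 1.34 in WT and 2.29 in *xpc-1*. Of all reads in coding sequence, 17.6% and 16.6% in WT and 15.3% and 14.8% in *xpc-1* held a T run, next to 7.23% of placements there. Among chromosomes, the ratio of the T-run share to that of the placements was highest on X, at 1.67 and 1.57 in WT and 1.31 and 1.36 in *xpc-1*, and lowest on III, at 1.51 and 1.40, and 1.17 and 1.15.

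At promoters, T-run reads were counted in 500 bp on each side of 15287 protein-coding transcription start sites at least 1 kb apart. Upstream of the start they were 1.25 ± 0.0245 times as dense as their placements in WT, 1.26 ± 0.0342 in *csb-1* and 0.973 ± 0.00642 in mixed-stage *xpc-1*, and downstream 1.15 ± 0.00247, 1.11 ± 0.00218 and 1.53 ± 0.0658 (SD, n = 2). L1 worms thus had the higher density upstream and *xpc-1* downstream. Downstream of the start, the ratio of TS to NTS reads, divided by that of placements, was 1.34 ± 0.0502 in WT, 0.995 ± 0.00100 in *csb-1* and 6.43 ± 0.180 in *xpc-1*. Upstream it was below 1 in WT (0.937 ± 0.0125) and *csb-1* (0.861 ± 0.00685), and 2.21 ± 0.159 in *xpc-1*. For the reads without a run the upstream values were lower in each of these groups, at 0.841 ± 0.0312, 0.777 ± 0.0193 and 1.95 ± 0.131. Their downstream values were close to those of T-run reads, at 1.32 ± 0.0468, 1.01 ± 0.00326 and 6.33 ± 0.636.

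Over protein-coding genes, T-run reads lay mostly on the TS in WT and *xpc-1* and slightly more on the NTS in *csb-1*. A read counted as TS where it lay opposite to the annotated strand, and only bases with genes on 1 strand were used, where 49.7% of the placements of T runs were on the TS. The TS share was 54.0% and 55.3% for WT, 47.7% and 47.9% for *csb-1*, 86.1% and 83.9% in mixed-stage *xpc-1*, and 51.0% and 47.2% in WT no UV. WT was thus 6.81 percentage points above *csb-1* and *xpc-1* 30.4 points above WT, with no overlap between the groups, at an exact two-sided permutation p of 0.3333, the smallest possible. Relative to placements, the TS to NTS ratio was 1.22 ± 0.0458 in WT, 0.926 ± 0.00350 in *csb-1* and 5.79 ± 0.707 in *xpc-1* (SD, n = 2).

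T-run reads were less biased to the TS than other reads in every irradiated library. The log2 ratio of TS to NTS reads, relative to placements of the same class, of T-run reads minus that of the others was -0.079 and -0.076 for WT, -0.094 and -0.097 for *csb-1*, and -0.005 and -0.183 in mixed-stage *xpc-1*. The mean of -0.089 gave an exact two-sided sign-flip permutation p of 0.03125 over 6 of 6 libraries, the smallest these 6 allow. These libraries are replicates within groups, so they are not 6 independent units, and the value of *xpc-1* replicate 1 was only -0.005. In WT no UV the differences were 0.080 and -0.181, in opposite directions. In *csb-1*, which lacks transcription-coupled repair, the log2 ratio fell with the length of the run, from -0.03 ± 0.0078 for runs of 2 and -0.07 ± 0.0088 for 3 to -0.09 ± 0.0044 for 4, -0.12 ± 0.0029 for 5 and -0.21 ± 0.022 for 6 or more (SD, n = 2). In WT it was 0.35, 0.30, 0.30, 0.28 and 0.18 for the same classes, and in *xpc-1* 2.76, 2.72, 2.63, 2.42 and 2.31. Reads with no adjacent thymines extended this order in *csb-1*, at -0.0022 ± 0.0062, above runs of 2. They did not in *xpc-1*, where they had 1.65 ± 0.37, below every class with a run. The WT libraries disagreed, at 0.20 and 0.57.

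The difference depended on the part of the gene. In coding sequence, where 61.3% of the placements of T runs are on the TS, T-run reads had 68.2% ± 1.27 on the TS in WT, 60.3% ± 0.0611 in *csb-1* and 93.0% ± 0.212 in *xpc-1*. Relative to placements this was 0.44 ± 0.084, -0.06 ± 0.0037 and 3.08 ± 0.047 on the log2 scale, below the other reads of the same groups at 0.62, 0.17 and 3.16. In 3′ UTRs, where 32.8% of placements are on the TS, the order was the opposite: T-run reads stood at 0.04 ± 0.056 in WT and -0.28 ± 0.0023 in *csb-1*, and the other reads at -0.33 and -0.60. In 5′ UTRs, too, T-run reads were above the others, at 0.28 and 0.06 in WT. Introns followed coding sequence in WT and *csb-1*, with 0.12 ± 0.021 and -0.22 ± 0.034 for T-run reads and 0.21 and -0.10 for the others. In *xpc-1* introns T-run reads stood at 2.28 ± 0.29 and the others at 2.23 ± 0.21, a difference within the spread between replicates.

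At the 3′ ends of introns the T runs lie mainly on the coding strand, which is the NTS, and 33.5% of placements in the last 20 nt of introns were on the TS. The TS share of T-run reads there was 32.4% ± 0.858 in WT, 28.6% ± 1.60 in *csb-1* and 66.6% ± 8.92 in mixed-stage *xpc-1* (SD, n = 2), so that *xpc-1* had most of its reads on the strand with fewer runs. Relative to placements, T-run reads there were above the other reads in WT and *csb-1*, at -0.07 and -0.28 for WT and -0.33 and -0.54 for *csb-1* on the log2 scale. In *xpc-1* they stood at 2.01 ± 0.58 and the others at 1.91 ± 0.53, a difference within the spread between replicates. The *xpc-1* libraries were 72.9% and 60.3%, the widest gap between replicates of an irradiated group among these regions. The strand skew of runs was not limited to this end, since 34.3% of placements in the first 20 nt of introns were on the TS. In those first 20 nt T-run reads were below the others, at 0.39 and 0.68 for WT and -0.01 and 0.15 for *csb-1*. In *xpc-1* they stood at 2.60 ± 0.48 and 2.80 ± 0.068, a difference within the spread between replicates. Runs directly followed by CAG on the strand of the read, the form of a worm 3′ splice site, made up 2.97% and 2.70% of T-run reads in WT, 2.87% and 2.31% in *csb-1* and 3.31% and 2.95% in *xpc-1*. Of the placements of T runs, 2.55% had this form, in the motif with at least 4 T and then CAG, and only *csb-1* replicate 2 was below it among the irradiated libraries.

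Strand ratios of T-run reads, log2((TS + 0.5)/(NTS + 0.5)), were compared gene by gene between WT and *csb-1* with limma, to ask in which genes the strand of these reads depended on CSB-1. Of 14137 genes with a mean of at least 20 T-run reads over the 4 libraries, 371 (2.62%) had a higher ratio in WT and 6 (0.0424%) a lower one at an adjusted p under 0.05, with a median difference of 0.34 and 70.8% of genes above 0. WT was higher in all 4 pairings of a WT with a *csb-1* library in 5667 genes and lower in all of them in 1204. The calls depended on how the variance was modelled: with the trend over the mean ratio in place of the number of reads, or with no trend, 0 genes were called. Without either *csb-1* library 0 were called as well, whereas without WT replicate 1 there were 2760 higher and 571 lower, and without WT replicate 2 there were 598 and 21. At an unadjusted p under 0.05 the limma fit of all 4 libraries had 2693 genes.

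Of the called genes, 184 averaged at least 50 T-run reads, overlapped no gene of the opposite strand and moved alike in all pairs, 183 of them with WT higher. The largest difference was in *C14B9.10* (III, 8130852 to 8132436), with 90 TS and 13 NTS T-run reads in WT replicate 1 and 37 and 8 in replicate 2. In the *csb-1* libraries there were 14 TS and 16 NTS, and 25 TS and 33 NTS reads. Its log2 ratio was 2.73 ± 0.45 higher in WT (difference ± standard error, adjusted p = 0.00821 from limma). The *xpc-1* libraries had 149 TS reads against 1, and 3 against 0. WT and *csb-1* thus did not overlap, and *xpc-1* had nearly all its reads on the TS.

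*gsp-2*, a catalytic subunit of protein phosphatase 1 (III, 7336587 to 7338765), had 96 TS and 12 NTS reads and 31 and 2 in WT, and 31 and 18, and 44 and 33, in *csb-1*, a difference of 2.71 ± 0.43 (adjusted p = 0.00821 from limma). For *pqn-53*, a gene with a glutamine- and asparagine-rich domain, the WT libraries had 79 and 42 TS against 9 and 7 NTS reads, and the *csb-1* libraries 18 and 41 against 20 and 29. *set-26*, a SET domain protein, had 74 and 37 TS against 18 and 6 NTS reads in WT and 19 and 52 against 27 and 55 in *csb-1*. The differences were 2.61 ± 0.45 and 2.56 ± 0.40 (adjusted p = 0.0116 and 0.00821 from limma), and that of *T05F1.13* was 2.51 ± 0.49 (adjusted p = 0.0199 from limma). Among these 5 genes, *gsp-2* had more TS than NTS reads in both *csb-1* libraries and *pqn-53* in replicate 2.

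The only gene with a lower ratio in WT under the same conditions was *T07F8.1* (II). It had 46 TS and 46 NTS T-run reads in WT replicate 1 and 26 and 37 in replicate 2, next to 45 TS and 20 NTS, and 103 TS and 48 NTS reads in the *csb-1* libraries, a difference of -1.37 ± 0.35 (adjusted p = 0.0466 from limma). In mixed-stage *xpc-1* it had 15 TS and 89 NTS reads in replicate 1 and 0 in replicate 2. Its reads without a run gave 54 TS and 546 NTS in the same *xpc-1* library, so the excess on the annotated coding strand was not limited to T runs.

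*vbh-1*, a DEAD-box RNA helicase gene, had 90 TS and 19 NTS T-run reads and 42 and 6 in WT, and 42 and 24, and 64 and 63, in *csb-1*, a difference of 2.05 ± 0.38 (adjusted p = 0.0170 from limma). Its neighbour *mrpl-17*, a mitochondrial ribosomal protein gene, had 9 TS and 4 NTS T-run reads in WT replicate 1 and 6 and 4 in *csb-1* replicate 2, too few to be tested. The mutated genes were tested as well: the ratio of *csb-1* differed by -0.10 ± 0.49 (adjusted p = 0.938 from limma), over unequal sequence because of the stretch without reads, and that of *xpc-1* by -0.02 ± 0.28 (adjusted p = 0.986 from limma). In the 15939 bp of *xpc-1*, with 6233 placements of T runs on the TS and 4276 on the NTS, T-run reads on the TS outnumbered those on the NTS in all 4 L1 libraries, with 173 against 48 in WT replicate 1 and 262 against 101 in *csb-1* replicate 2.

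Gene families differed in how their T-run reads were divided between the strands. Of 78 genes of cytosolic ribosomal proteins (*rpl-*, *rps-*), 17 had enough T-run reads to be tested, of which 5 were higher in WT and 0 lower, with a median difference of 2.20. Over all genes tested the median was 0.34 and 2.62% were higher. Pooled over the 78 genes, 77.4% and 80.3% of T-run reads were on the TS in WT, 53.1% and 48.5% in *csb-1*, and 91.4% and 97.2% in *xpc-1*, where 41.7% of the placements are. Of 269 nuclear hormone receptor genes (*nhr-*), 221 were tested, with 6 higher, 0 lower and a median of 0.52. That count is near the 2.62% called higher over all genes tested, so it does not set this family apart. The pooled TS share of the family was 55.9% and 57.1% for WT, 48.2% and 48.8% for *csb-1* and 83.0% in both *xpc-1* libraries.

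The chemoreceptor genes (*str-*, *srh-*), most of which are used in a few sensory neurons, had most of their T-run reads on the NTS in every irradiated library. Of 413 genes 187 were tested, with 0 higher and 1 lower and a median of -0.07, and the TS held 36.5% and 37.3% of the T-run reads in WT, 36.2% and 37.4% in *csb-1* and 39.3% and 34.0% in *xpc-1*, as against 42.5% of placements. Of 156 cuticle collagen genes (*col-*) 29 were tested and 0 called in either direction, with a median of -0.19. Their TS shares ran from 51.5% to 52.5% in the irradiated L1 libraries and were 44.5% (210 TS and 262 NTS reads) and 50% (5 and 5 reads) in *xpc-1*, next to 48.1% of placements. Of 72 histone genes (*his-*) 3 were tested and 0 called, with a median of 1.56. The pooled histone genes had TS shares of 51.2% and 51.5% for WT, 36.4% and 40.8% for *csb-1*, and 77.1% and 100% (4 reads) in *xpc-1*, where 56.0% of placements are. Of the 37 yolk and sperm protein genes 0 had enough reads. Because only genes with enough T-run reads were tested, these counts do not describe whole families.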

How the data were processed

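The authors trimmed adaptors with cutadapt, aligned the reads with Bowtie 2 to ce11, removed duplicates and wrote BED files with bedtools. Versions are not given in the sources used here. In each of the 8 deposited files a line is a read of 19 to 24 nt, with the mapping quality as its score and, by inference from the read name, a number of copies. Nuclear reads whose mapping quality exceeded 20 were kept and each counted once, from 10260 to 13203914 per library. The low depth of the WT no UV libraries limits every value from them.

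Sequence and annotation were those of WBcel235 (Ensembl release 115, 19973 protein-coding genes). Distances are the nucleotides between a base and the 3′ end of the read, and a read was assigned to features, strands and promoter windows by the base with 6 nt after it, and to single genes by its midpoint. Shares have exact Clopper-Pearson intervals. Groups were compared with exact permutation tests (Python 3.11.15, scipy 1.17.1) and genes and hexamers with limma 3.58.1 in R 4.3.3, with Benjamini-Hochberg adjustment over all features tested. For genes, the prior variance had a trend over log2 of the mean number of T-run reads. Genes were named by the 5 largest positive and the largest negative differences among called genes that averaged at least 50 reads, overlapped no gene of the opposite strand and moved alike in all pairs, together with the genes the study names and the mutated genes. Hexamers were named by the 5 largest and 5 smallest differences of each comparison, and sites by their lowest library, at most 1 per gene.

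The members and lists were chosen with earlier results of these data known. The fits were tested on simulated data: for genes, 5, 27, 44 and 48 of 50 changes of 1, 2, 3 and 4 on the log2 scale were recovered among 14137 genes, with 1 false call, and for hexamers between WT and *csb-1*, 120 of 200 changes of 1 among 4039, with 4 false calls. The simulated spread between libraries was fixed and, for hexamers, smaller than in the real fit. Recovery and false calls in the real data can therefore differ. Alternatives changed the minimum of reads, the pseudocount, the trend, the replicate block, the uniqueness of placements, the counting of copies and positions, and the libraries included.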

Additional observations from a re-analysis of the deposited data

Results flagged for a closer look

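The difference in mean length between T-run and other reads had opposite signs in L1 libraries with UV and in the other groups. Both WT and both *csb-1* libraries had longer T-run reads, and both WT no UV and both mixed-stage *xpc-1* libraries had shorter ones. The gap was 0.299 nt between WT and WT no UV, 0.165 nt between WT and *xpc-1*, 0.297 nt between *csb-1* and WT no UV and 0.162 nt between *csb-1* and *xpc-1*. These differences between groups were not tested.

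Reads with a mapping quality of 20 or less entered no comparison. T-run reads made up a mean of 27.9% of them in WT, 27.3% in *csb-1* and 25.04% in mixed-stage *xpc-1*, above the 12.4% and 12.6% of the WT no UV libraries.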

How the results depend on the processing

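Of 340 alternative values of 43 results, 243 were counted as unchanged. For differences in share, template-strand share or length this meant only the same sign, and for counts a similar number. For ratios and distances it meant a move below the SD between replicates, and for named genes the same sign and side of the threshold. The share difference between WT and *csb-1* thus counted as unchanged at 0.0443 points without WT replicate 1. With placements whose last 19 nt occur once, the T-run share over that of the genome was 1.62 in WT, 1.56 in *csb-1* and 1.32 in mixed-stage *xpc-1*. Runs of 4 over runs of 9 or more then stood at 2.30 in WT and 2.91 in *csb-1*, and the coding-sequence ratio was 1.34 in WT and 2.29 in *xpc-1*. Counting only the run over the 2 bases at the lesion site, the ratio of runs of 4 to 9 or more was 6.62 in WT and 7.98 in *csb-1*. Placing reads by their midpoint gave 2.73 for coding sequence in *xpc-1*, but lowered the ratio of 5′ UTRs to 1.61 in WT and 1.69 in *xpc-1*. The mean distance to the 3′ end was 4.61, 4.44 and 4.87 nt for runs of 5 in WT, *csb-1* and *xpc-1*, 4.49, 4.33 and 4.84 nt for runs of 6, and 4.76 nt for runs of 4 in *csb-1* reads of 24 nt. The rule by which reads were chosen limits these distances too, so the means alone do not measure where the lesion lay. The strand difference between T-run and other reads ranged from -0.106 to -0.0703 when 1 library was left out, where 5 libraries cannot reach the threshold.

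The number of genes with a higher and a lower strand ratio in WT was 600 and 8 with a pseudocount of 1, 141 and 2 when 10 reads were required on average, 738 and 11 when 50 were, 0 and 0 with no minimum above 1 read, 85 and 1 after dropping genes overlapped from the opposite strand, and 576 and 7 with each position counted once. It was 0 and 0 with no trend and, in an alternative chosen after seeing the data, 0 and 0 with the trend over the mean ratio. Leaving out 1 library gave 0 to 2760 higher and 0 to 571 lower. With the replicate block it was 1058 and 41, but the samples share only a number: deviations of same-numbered libraries correlated at -0.014 for genes, and at 0.19, -0.0023 and -0.14 for hexamers between WT and *csb-1*, WT no UV and *xpc-1*. The replicate block changed no hexamer count, with 37 higher against WT no UV. With the *xpc-1* numbers crossed, chosen after seeing the data, 4 hexamers were lower in *xpc-1*. Leaving out 1 library gave 21 to 39 higher in WT than in WT no UV and 0 to 8 lower in *xpc-1*.

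Each of the 5 named genes with a higher ratio in WT, and *vbh-1*, lost its call in 5 of 13 alternatives and *T07F8.1* in 8, with adjusted p up to 0.678 from limma. The sign reversed for *csb-1* without *csb-1* replicate 1 (0.35) and without WT replicate 1 (0.26), and for *xpc-1* without WT replicate 2 (0.47), none of them called; over all single omissions the differences ran from -0.55 to 0.35 for *csb-1* and from -0.50 to 0.47 for *xpc-1*. The cause of these changes was not tested.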
